A study of Homo sapiens with 27 samples.

Results

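The genes described here encode the nuclear pore complex outside its nuclear basket. The set was chosen by name, as the scaffold, channel, cytoplasmic and membrane nucleoporins, without the basket proteins TPR, NUP153, NUP50 and ZC3HC1, and it holds 30 genes. Of these, 29 had a row among the 34464 genes of the deposited table and all 29 were among the 14611 genes tested; the identifier of the remaining member, POM121C, was not found in the table and its level is not analysed here. U2OS cells, a human osteosarcoma line, had received, by lentivirus, a control shRNA or either of 2 shRNAs that target TPR (named 'TPR A' and 'TPR D'), and were selected with puromycin and collected after 5 days. Each culture was split with detergent into a nuclear fraction and a cytoplasmic/ER fraction, and part of the cells was kept as total, so that 3 shRNAs, 3 fractions and 3 replicates gave 27 libraries of poly(A)+ RNA. All cells, controls included, carried a lentiviral shRNA. The study's methods call the replicates biological, and the labels do not say whether each was infected separately.

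The nuclear pore complex is the channel through which mRNAs, proteins and ribosomal subunits cross the nuclear envelope. Y complexes form its outer rings on both faces, an inner ring anchors the central channel, membrane nucleoporins fix the structure in the envelope, and channel nucleoporins with phenylalanine-glycine repeats bind the transport receptors. Fibrils on the cytoplasmic face are the site where exported mRNA is released from its receptor, and the basket, whose long coiled-coil protein is TPR, projects from the nuclear face.

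Levels are FPKM, read counts scaled by transcript length and by the reads of each library, so they are relative to the other poly(A)+ RNA of the same library and do not measure molecules per cell. The steps between low values placed 1 FPKM at 32.5 to 89.7 reads per kb of transcript, and at the lowest value of any member, RANBP2 at 1.16 FPKM in a cytoplasmic/ER library, this corresponded to 42.1 reads per kb. The targeted gene, TPR, was at 25.3 to 28.2 FPKM in control total RNA, at 3.44 to 4.70 with TPR A and at 3.23 to 6.01 with TPR D. VIM, COL1A1, SPARC, RUNX2 and ALPL, genes of mesenchymal and bone-forming cells, exceeded 1 FPKM in all 27 libraries, while the late osteoblast genes BGLAP and IBSP and the osteoblast factor SP7 did so in none. COL1A2, the partner chain of COL1A1, stayed under 1 FPKM in every library, and EPCAM, an epithelial gene, was at 1.43 to 6.87 FPKM.

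The nuclear and the total library labelled control replicate 2 went against their labels. Over the members, the first correlated best with the mean of the total libraries (r = 0.982) and the second with the mean of the nuclear libraries (r = 0.981), whereas each of the remaining 25 matched the fraction of its label best. Transcripts of the mitochondrial genome took 21.8% of the summed FPKM of the first and 0.738% of that of the second, against 0.774% to 2.42% in the other nuclear and 15.8% to 24.7% in the other total libraries. The labels were kept, and for many, not all, of the calls, counts and values the result without these libraries is also given. Some transcripts are also shared with near copies: of the 31-base words in annotated coding transcripts of RANBP2, 33.3% occurred in coding or long noncoding transcripts of other genes, above all the RGPD genes, and of those of POM121 43.5%, above all POM121C. Values of these genes are therefore uncertain, since reads may be divided between the copies.

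All 29 members were expressed, and 28 of them lay above the median of the genes tested. The median member had a mean of 35.4 FPKM over the 27 libraries, against 12.4 FPKM for all genes tested. The means of the members spanned 26.6-fold. NUP85, a Y complex subunit, was highest at 222.9 FPKM, close to NUP93, which organises the inner ring, at 217 FPKM. NUP210, a membrane nucleoporin, was lowest at 8.37 FPKM.

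Levels differed widely within each sub-complex. Among the Y complex genes, SEC13, whose protein also serves in COPII vesicle coats, had a mean of 127 FPKM, while NUP160 had 16.3 and NUP133 18.9. In the inner ring NUP188, NUP205 and NUP155 lay between 29.1 and 34.1 FPKM, well under NUP93. Of the channel genes NUP62 was at 81.3, NUP98 at 69.0, NUP54 at 38.7 and NUP58 at 17.7 FPKM. On the cytoplasmic face RAE1, an mRNA export factor that binds NUP98, was highest at 79.2 FPKM, and RANBP2, the large SUMO E3 ligase of the cytoplasmic fibrils, was lowest at 17.7 FPKM as a mean over all fractions. In control total RNA NUP42, which binds the export factor GLE1, was lower (21.4 FPKM) than RANBP2 (24.4 FPKM).

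**Figure D1:**
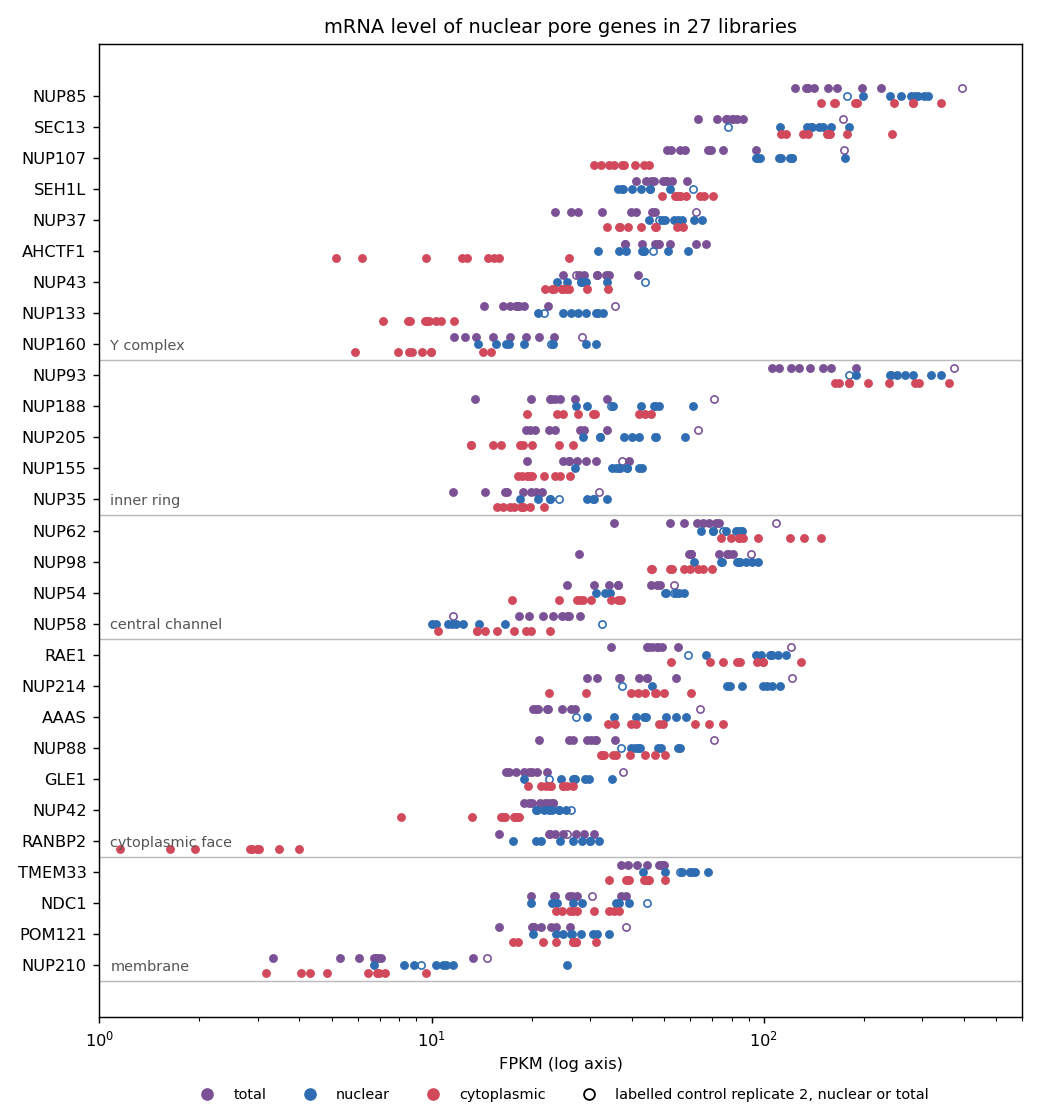
FPKM of 29 nuclear pore genes (rows, grouped by sub-complex) on a log axis, 1 point per library, in the total, nuclear and cytoplasmic/ER fractions of all 3 shRNAs; open points are the 2 libraries labelled control replicate 2 that went against their labels. Cytoplasmic/ER points of RANBP2, AHCTF1, NUP107, NUP133 and NUP160 lie to the left of most of their nuclear points.

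The first comparison asked whether depletion of TPR altered the mRNA level of the rest of the pore. Few members passed the test for such a change. In total RNA, 0 of 29 passed the threshold (limma, adjusted p of 0.05) with TPR A, where 0.821% of all genes did, and 1 of 29, NUP160, passed with TPR D, where 0.753% of all genes did. At an unadjusted p under 0.05 there were 4 members with TPR A, against 12.6% of all genes, and 7 with TPR D, against 14.6%. Both shRNAs were compared with the same control libraries, so their values are not independent.

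Most estimates in total RNA were negative. With TPR A 25 of 29 were below 0 and the median was -0.35 on the log2 scale, while 50.6% of all genes were below 0. With TPR D 22 of 29 were below 0 and the median was -0.28. After scaling of the libraries, all 3 TPR A libraries lay below all 3 controls for 5 members (NUP160, NUP133, RAE1, NUP54 and NDC1), which 8.33% of all genes did, and all 3 TPR D libraries for 3 members (NUP160, NUP133 and RAE1), which 7.93% of all genes did. On FPKM as deposited SEH1L joined both lists, which then had 6 and 4 members.

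This shift rested largely on 1 library. Without the 2 libraries of control replicate 2 the TPR A median was -0.02, with 17 of 29 members below 0, and the TPR D median -0.12, with 19 of 29. NUP107, a Y complex subunit, shows it: control total RNA gave 94.8, 174.8 and 57.9 FPKM, against 75.1, 69.5 and 55.9 with TPR A and 52.7, 67.9 and 51.1 with TPR D. The control value of 174.8 FPKM, from replicate 2, was at the level of nuclear libraries. The estimate of NUP107 with TPR D was -0.72 ± 0.27 (SE) with that library and -0.34 without it. NUP188, of the inner ring, moved likewise from -0.90 to -0.49.

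**Figure D2:**
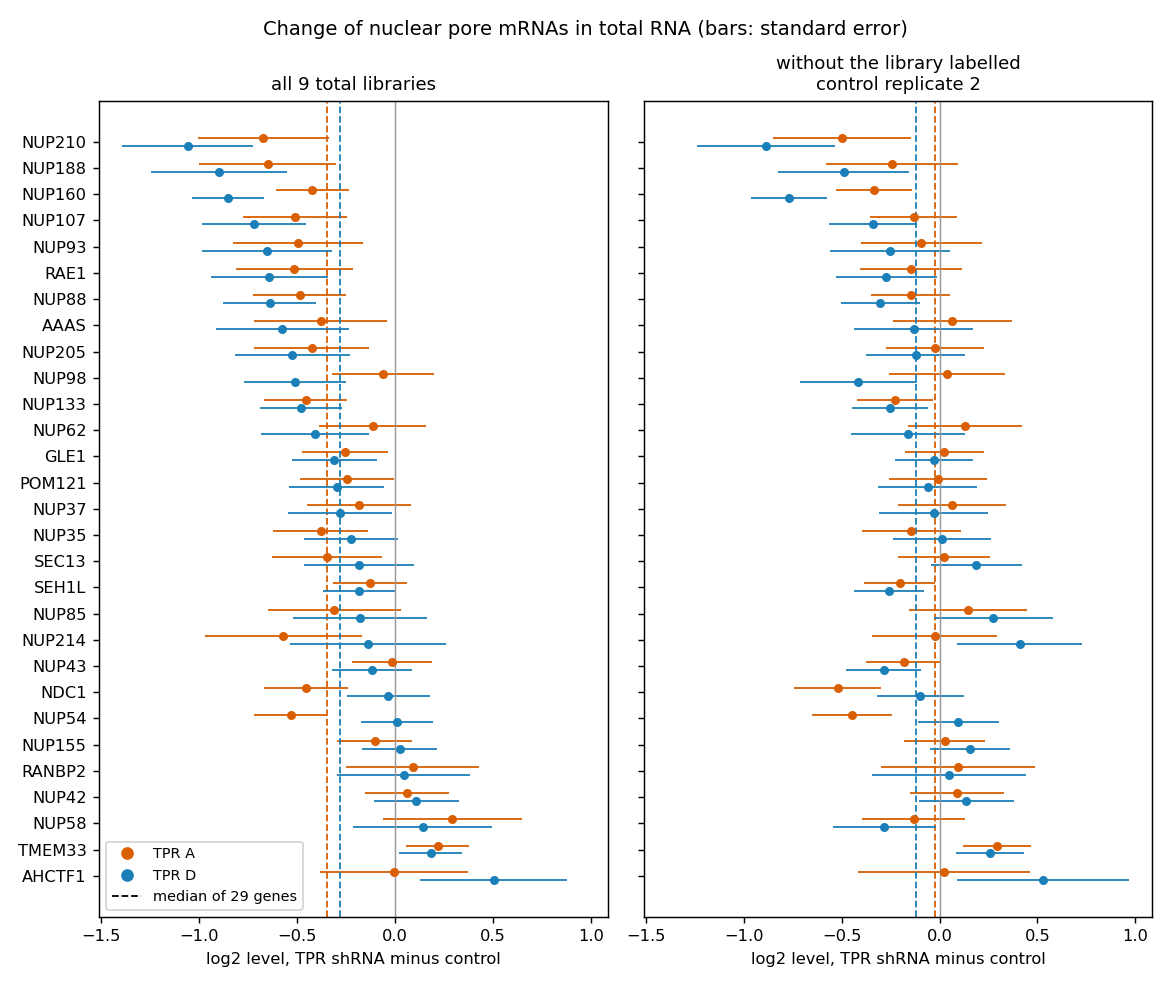
Difference in log2 level between TPR-depleted and control cells in total RNA for 29 nuclear pore genes, with all 9 total libraries (left) and without the library labelled control replicate 2 (right); bars are standard errors and dashed lines the medians of the 29 genes. The medians lie at -0.35 (TPR A) and -0.28 (TPR D) on the left and at -0.02 and -0.12 on the right, while NUP160 with TPR D stays at -0.77.

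NUP160 was the only member to pass in total RNA, with TPR D alone, and this call depended on the setting. It encodes a scaffold subunit of the Y complex and lies on chromosome 11 (GRCh37, chr11:47799639-47870107, minus strand). Control total RNA had 23.3, 28.4 and 21.1 FPKM, TPR A 17.3, 15.3 and 19.3 FPKM, and TPR D 11.7, 13.6 and 12.6 FPKM. All 6 TPR-depleted libraries were thus below all 3 controls, and the TPR D libraries were below those of TPR A. The level fell with TPR D by 0.85 ± 0.18 on the log2 scale (SE; limma adjusted p = 0.0314), to 0.554 of the control level. With TPR A the estimate was -0.42 ± 0.18 and did not pass (adjusted p = 0.341).

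The fractions gave similar sizes for NUP160. Nuclear RNA had 29.2, 22.9 and 31.4 FPKM in control, 17.1, 18.9 and 23.2 with TPR A, and 16.7, 13.8 and 15.6 with TPR D. The TPR D libraries did not overlap the controls, and the level fell by 0.84 ± 0.18 (adjusted p = 0.0402). Cytoplasmic/ER RNA had 15.1, 9.98 and 14.3 FPKM in control, 9.94, 8.74 and 9.36 with TPR A, and 8.58, 5.89 and 7.93 with TPR D. There the estimate was -0.78 with TPR D, which just missed the threshold (adjusted p = 0.0538), and -0.43 with TPR A (adjusted p = 0.340). Without the 2 libraries of control replicate 2 the TPR D estimate was -0.77 in total RNA and did not pass (limma adjusted p = 0.101). In that fit it passed in nuclear RNA, at -0.96 (adjusted p = 0.0341), and in cytoplasmic/ER RNA, at -0.78 (adjusted p = 0.0316). Across 19 alternative settings the total RNA estimate stayed between -0.93 and -0.77, with adjusted p from 0.0126 to 0.484, and passed in 8. The nuclear estimate passed in 9 of 19 and the cytoplasmic/ER estimate in 5 of 19. The direction thus held in each fraction, while the call depended on the setting.

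NUP54, a subunit of the channel complex with NUP62 and NUP58, had lower values with TPR A and values like those of control cells with TPR D. In nuclear RNA control cells had 57.4, 53.5 and 50.9 FPKM, TPR A 34.4, 31.3 and 33.3 FPKM, and TPR D 55.7, 54.5 and 50.4 FPKM. The TPR A libraries were below all others, and those of TPR D overlapped the controls. The difference was -0.70 ± 0.19 with TPR A (adjusted p = 0.0761) and -0.00 ± 0.19 with TPR D, with a 95% interval of -0.39 to 0.38. In total RNA the estimates were -0.53 with TPR A (adjusted p = 0.207) and 0.01 with TPR D. Without the 2 libraries of control replicate 2 the TPR A estimates were -0.70 in nuclear (adjusted p = 0.173) and -0.45 in total RNA. The direct difference between the shRNAs in total RNA was -0.54 and did not pass (adjusted p = 0.330).

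NDC1, a membrane nucleoporin needed for pore insertion, had a like pattern. Total RNA gave 38.5, 30.4 and 27.5 FPKM in control, 23.4, 23.5 and 19.9 with TPR A, and 26.0, 37.1 and 26.5 with TPR D. The TPR A libraries were below all others. The estimates were -0.45 ± 0.21 with TPR A (adjusted p = 0.380) and -0.03 ± 0.21 with TPR D, and -0.52 and -0.10 without the 2 libraries.

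NUP210 had the largest estimate of all members, with wide errors. Control total RNA had 13.3, 14.7 and 6.78 FPKM, TPR A 7.03, 6.03 and 6.70, and TPR D 3.33, 6.89 and 5.29. The third control lay within the range of the TPR-depleted libraries. The estimate with TPR D was -1.06 ± 0.33 (adjusted p = 0.128), and -0.89 without the 2 libraries. AHCTF1, which encodes ELYS and recruits Y complexes to chromatin, had the highest estimate upwards, at 0.50 with TPR D (adjusted p = 0.552). Its total RNA values were 48.0, 48.5 and 38.2 FPKM in control and 66.8, 62.3 and 52.0 with TPR D, without overlap.

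**Figure D3:**
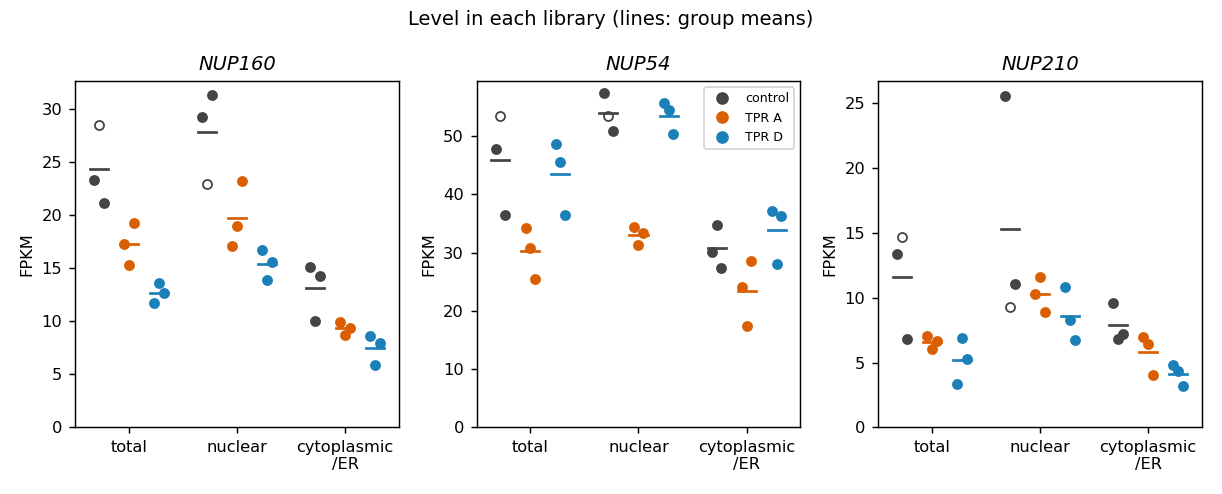
FPKM of NUP160, NUP54 and NUP210 in each of the 27 libraries, by fraction and shRNA; lines are means of 3 libraries and open points the 2 libraries labelled control replicate 2 that went against their labels. NUP160 is lowest with TPR D in each fraction, NUP54 is lowest with TPR A, and for NUP210 the control points spread from 6.78 to 14.7 FPKM in total RNA.

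Short promoter stretches are shown for NUP160, which passed with TPR D, and NUP54, which had the lowest adjusted p of the members with TPR A. RefSeq promoters (GRCh38.p14, from 250 bases before to 50 bases after the start) were found for 26 of the 29 members tested, all but NUP43, AHCTF1 and GLE1. The core of the ETS motif, CCGGAAG, occurred on either strand in 11 of these 26 (42.3%), against 19.4% of 10634 promoters of genes tested and 10.3% of 35116 promoters in all. The matches in the 2 genes follow, 5′ to 3′ on the strand of the gene, with the motif in capitals:
NUP160, chr11:47848368-47848394, minus strand: cgccccacccCCGGAAGtgacggcgac
NUP54, chr4:76148552-76148578, minus strand: gtgaagcccaCCGGAAGtgagctggct
NUP54, chr4:76148491-76148517, minus strand: cccttggcgcCTTCCGGcctcttaggc
The match in NUP160 begins 34 bases before the start, and those in NUP54 171 and 110 bases before it, the latter as CTTCCGG, the reverse complement. The GC box GGGCGG, on either strand, was found in 11 of 26 member promoters (42.3%), against 70.0% of those of genes tested, and TATAAA in 0 of 26, against 5.60%. CCAAT was found in 10 (38.5%, against 36.8%) and the NRF1 core GCATGCGC in 2 (7.69%, against 5.63%). These are matches of letters and no test was made on them.

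In nuclear RNA 0 of 29 members passed with TPR A (0.903% of all genes) and 1, NUP160, with TPR D (0.479%). An unadjusted p under 0.05 was found for 3 members with TPR A (12.2% of all genes) and for 2 with TPR D (9.13%). The medians were -0.13 and -0.04. Without the 2 libraries of control replicate 2 they were -0.16 and -0.11. Again 0 members passed with TPR A (0.568% of all genes) and 1, NUP160, with TPR D (0.274%). In cytoplasmic/ER RNA 0 of 29 passed with TPR A (0.623% of all genes) and 0 with TPR D (0.575%), with 2 and 3 at an unadjusted p under 0.05 (11.6% and 9.42% of all genes) and medians of -0.12 and -0.04. The median standard error of a member was 0.26 on the log2 scale. In total RNA with TPR D the estimates of NUP188 (-0.90) and NUP210 (-1.06) exceeded that of NUP160 (-0.85) in size and did not pass. Changes as large as NUP160's could therefore go undetected in members with larger errors.

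By sub-complex, estimates in total RNA with TPR A were below 0 for 9 of 9 Y complex genes, 5 of 5 inner ring genes, 3 of 4 channel genes, 5 of 7 genes of the cytoplasmic face and 3 of 4 membrane genes. With TPR D they were below 0 for 8, 4, 2, 5 and 3 genes in the same order. These counts were 5, 4, 2, 3 and 3 (TPR A) and 6, 3, 3, 4 and 3 (TPR D) without the 2 libraries of control replicate 2. TMEM33, a membrane protein found with the pore, was above 0 with both shRNAs, at 0.22 and 0.18, and did not pass with either. Between TPR A and TPR D directly, 0 of 29 members passed in total RNA (0.281% of all genes), and 2, NUP54 and NUP160, had an unadjusted p under 0.05, against 7.41% of all genes.

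The second comparison asked where these mRNAs were found. The N/C ratio, the log2 difference between the nuclear and cytoplasmic/ER levels of a culture, was above 0 in control cells for 24 of 29 members, with a median of 0.43, while the median of all genes tested was -0.01. Of the members 11 passed, all of them higher in the nuclear fraction, where 39.4% of all genes passed in either direction and 20.2% passed as higher in the nuclear fraction. An N/C ratio of 0 stands for equal shares of each fraction's poly(A)+ RNA, not for equal amounts. Without the 2 libraries of control replicate 2 the median was 0.37. Then 12 members passed, 11 higher in the nuclear fraction, with NUP214 gained and TMEM33 lost, and SEH1L higher in the cytoplasmic/ER fraction. Of all genes 38.6% passed in that fit in either direction, and 2875 of 14611 passed as higher in the nuclear fraction.

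RANBP2 was the most nuclear. Its nuclear level was 26.7, 30.05 and 28.4 FPKM and its cytoplasmic/ER level 2.84, 1.95 and 2.99 FPKM in control cells. The groups were far apart, with an N/C ratio of 3.46 ± 0.34 on the log2 scale (SE; adjusted p = 6.22e-07). Reads shared with the RGPD genes may enter this value, and RGPD1, RGPD6 and RGPD8 passed as higher in the nuclear fraction as well.

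Of the Y complex, 4 of 9 genes passed. AHCTF1 had an N/C ratio of 1.99 ± 0.38, from 51.4, 46.3 and 43.5 FPKM in nuclear and 12.4, 9.64 and 14.8 FPKM in cytoplasmic/ER RNA (adjusted p = 0.000338). NUP107 had 1.74 ± 0.27, NUP133 1.51 ± 0.21 and NUP160 1.12 ± 0.18. The other scaffold subunits NUP85 (0.06), NUP37 (0.23) and NUP43 (0.43) did not pass, nor did SEC13 (-0.36) and SEH1L (-0.31), which also act outside the pore in vesicle coats and in amino acid sensing. SEH1L passed without the 2 libraries of control replicate 2, as higher in the cytoplasmic/ER fraction, at -0.52 (adjusted p = 0.0259).

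In the inner ring NUP155 (0.97 ± 0.19) and NUP205 (0.95 ± 0.29) passed, and NUP188 (0.45), NUP35 (0.41) and NUP93 (0.15) did not. In the channel NUP54 (0.85 ± 0.19) and NUP98 (0.80 ± 0.26) passed, and NUP58 (0.11) and NUP62 (-0.32) did not. Of the 7 genes of the cytoplasmic face RANBP2 passed with all libraries. NUP214 was at 0.57 (adjusted p = 0.265) and passed without the 2 libraries of control replicate 2, at 0.99 (adjusted p = 0.0196). AAAS, which encodes ALADIN, had the lowest ratio, at -0.40 ± 0.34, and without those libraries it was -0.15 and SEH1L was lowest. Of the membrane genes NUP210 (0.85 ± 0.33) and TMEM33 (0.46 ± 0.16) passed, the latter not without the 2 libraries (0.40, adjusted p = 0.0701). RANBP2, AHCTF1, NUP107, NUP133, NUP155 and NUP160 passed under each of 20 alternative settings, whereas TMEM33 passed in 14 and NUP210 in 8 of 20.

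**Figure D4:**
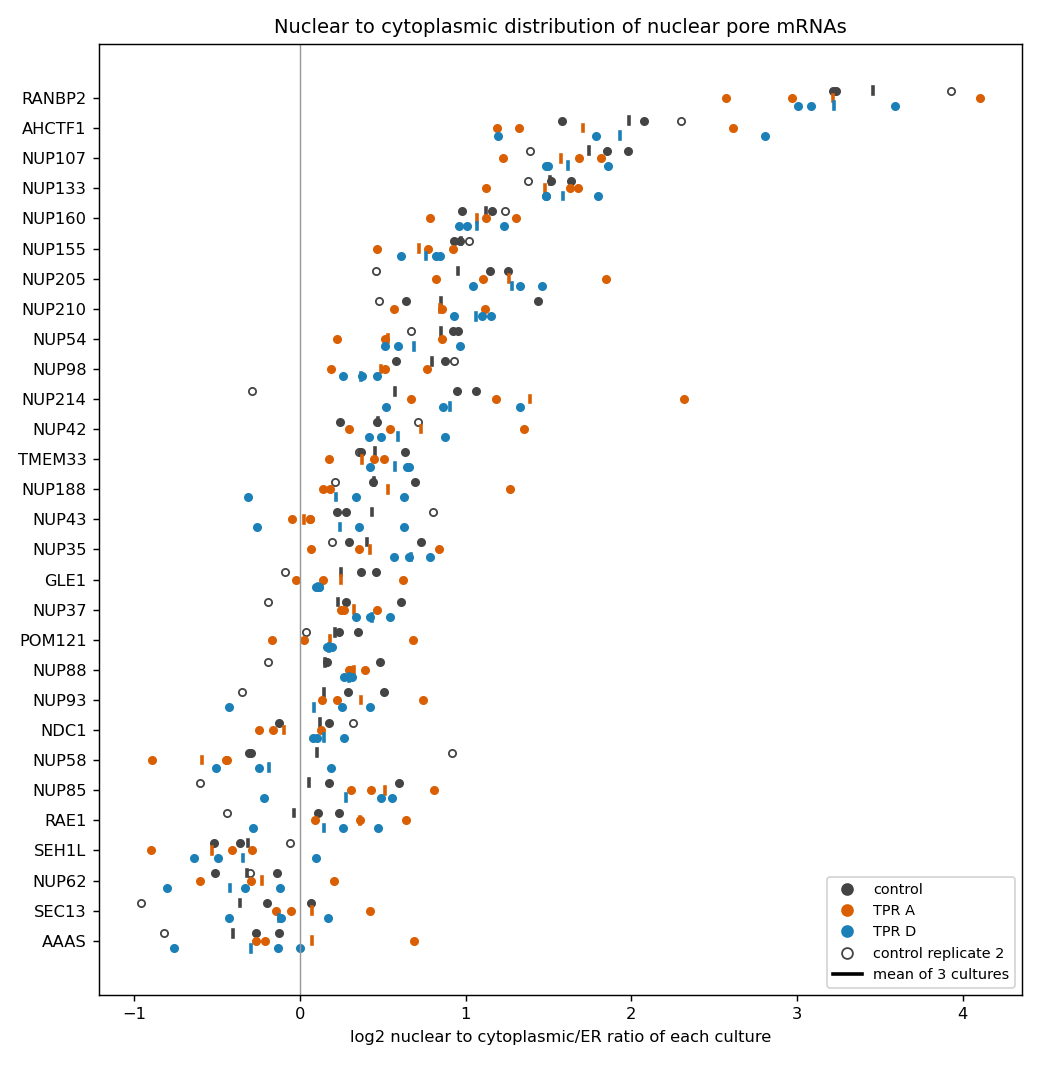
Log2 N/C ratio of 29 nuclear pore mRNAs in each culture, by shRNA, in the order of the control means; ticks are means of 3 cultures and open points control replicate 2. RANBP2 (control mean 3.46) and AHCTF1 (1.99) lead, AAAS (-0.40) is last, and the points of the 3 shRNAs overlap for most genes.

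The members with long mRNAs were the more nuclear ones. The canonical transcripts of the 29 genes (GENCODE 44 on GRCh37) had a median of 4552 nt, from SEC13 with 1359 nt to RANBP2 with 11708 nt, and a median of 17 exons, against 3318.5 nt and 9 exons over the protein-coding genes tested. Of the 14 members longer than their median, 10 passed as higher in the nuclear fraction, and of the other 15 members 1 did, NUP54. Over protein-coding genes split at the same length the shares were 38.4% and 13.7%. Spearman's rho between mRNA length and the control N/C ratio was 0.633 over the 29 members and 0.508 over 12290 protein-coding genes, and with exon number it was 0.573 and 0.385. The members had 0.633 and 0.672 without the 2 libraries of control replicate 2, and again 10 of 14 and 1 of 15 passed. These are descriptions across genes measured in the same libraries, not tests, and the length chosen for the split is that of the members themselves. The longer members that did not pass with all libraries were NUP93 (8234 nt, N/C ratio of 0.15), POM121 (5842 nt, 0.21), NUP188 (5689 nt, 0.45) and NUP214 (7568 nt, 0.57).

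**Figure D5:**
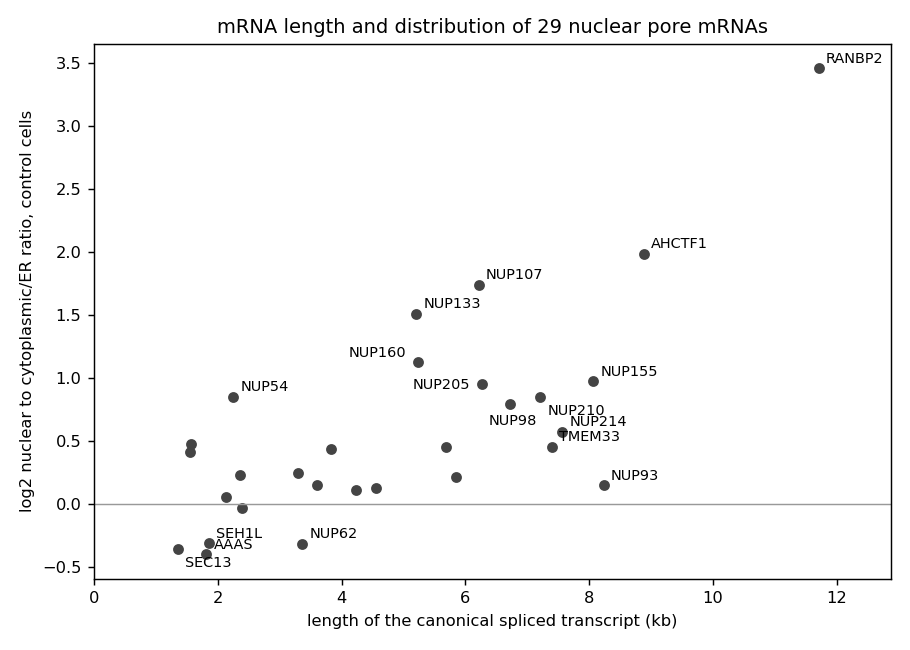
Log2 N/C ratio in control cells against the length of the canonical spliced transcript in kb, 1 point per nuclear pore gene (29 genes). The ratio rises with length, from SEC13 (-0.36) to RANBP2 (3.46), with NUP54 (0.85) above and NUP93 (0.15) below the others of their length.

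The third comparison asked whether TPR depletion moved these mRNAs between nucleus and cytoplasm. No member passed with either shRNA, and neither did any other gene: 0 of 29 members passed in each comparison, and 0% of the 14611 genes did (limma). At an unadjusted p under 0.05 there were 0 members, where 1.47% of all genes with TPR A and 0.821% with TPR D were found, so 0 of 29 is near these shares. The members had a median change of -0.00 (TPR A) and -0.03 (TPR D). That no gene passed does not show that no mRNA moved. Over 12290 protein-coding genes Spearman's rho between mRNA length and the N/C change was -0.499 (TPR A) and -0.527 (TPR D). Over the 29 members it was -0.325 and -0.305. These are descriptions across genes, and no test was made on them.

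The most nuclear mRNAs stayed nuclear in the TPR-depleted cells. The N/C ratio of RANBP2 in single cultures was 3.22, 3.93 and 3.24 in control, 2.57, 4.11 and 2.97 with TPR A, and 3.08, 3.59 and 3.004 with TPR D. The cultures overlapped, and the change had a 95% interval of -1.24 to 0.75 (TPR A) and -1.23 to 0.76 (TPR D). Changes within these bounds remain compatible with the data. The mean N/C ratio of NUP107 was 1.74 in control, 1.58 in TPR A and 1.62 in TPR D cultures. That of NUP160 was 1.12, 1.07 and 1.07 in the same order.

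The highest change with TPR A was that of NUP214, which anchors the mRNA export helicase at the cytoplasmic face. Its N/C ratios were 1.06, -0.29 and 0.95 in control, 0.67, 1.18 and 2.32 with TPR A, and 1.33, 0.52 and 0.86 with TPR D. The change of 0.82 ± 0.56 (95% interval -0.35 to 1.99) rested in part on control replicate 2, whose ratio of -0.29 was the lowest of the 9. The lowest change with TPR A was that of NUP58, at -0.70 ± 0.50, and its control ratios of -0.31, 0.92 and -0.29 also set replicate 2 apart. Without the 2 libraries of that replicate the changes of the members lay between -0.36 and 0.40 (TPR A) and between -0.44 and 0.23 (TPR D).

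By sub-complex, the N/C change was above 0 for 6 of 7 (TPR A) and 5 of 7 (TPR D) genes of the cytoplasmic face, and below 0 for 3 of 4 and 4 of 4 channel genes. Without the 2 libraries of control replicate 2 the cytoplasmic face had 5 of 7 and 1 of 7 above 0, and the channel 3 of 4 below 0 with each shRNA. None of these changes passed, and the shRNAs share the control libraries.

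The total level did not lie between the fractions for every member. In control replicates 1 and 3, 13 members had a mean total level between the nuclear and cytoplasmic/ER means, 12 lay below both and 4 above both. Each shRNA against TPR gave these same counts, and NUP43 and NUP58 were above both in all. Over all genes tested in control cells, 36.3% lay between, 31.9% below and 31.8% above. The share of mitochondrial transcripts given above for nuclear and total libraries was 26.5% to 37.9% in cytoplasmic/ER libraries, and its part in these positions was not tested.

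Related genes were examined by the same fit. Of the 4 basket genes only TPR passed with either shRNA, and NUP153, NUP50 and ZC3HC1 did not pass with them in any fraction. Of 13 genes of the RAN cycle and of transport receptors, RCC1, the exchange factor of RAN on chromatin, fell with TPR A in total RNA by 1.21 (adjusted p = 0.0111; -0.92 and 0.0594 without the 2 libraries of control replicate 2), and the other 12 did not pass in any fraction with either shRNA. None of the 4 partners of SEC13 and SEH1L outside the pore (SEC31A, MIOS, WDR24 and WDR59) passed with either shRNA in any fraction. Nor did any of the 5 near copies of members that were tested. In control cells CSE1L, KPNB1, TNPO1 and XPO1, which encode transport receptors, were higher in the nuclear fraction and NXT1 and RANBP1 higher in the cytoplasmic/ER fraction. The basket genes TPR and NUP153, the partner MIOS, and the near copies RGPD1, RGPD6 and RGPD8 also passed as higher in the nuclear fraction.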

How the data were processed

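The authors aligned poly(A)+ reads with Salmon to Gencode transcripts (hg19), summed them to genes with tximport and deposited FPKM, the only unit used here. No read counts were analysed, so count models were not run. Only genes whose mean exceeded 1 FPKM were kept, without 13 genes of the mitochondrial genome. Values were scaled by median-of-ratios factors (0.954 to 1.06) and transformed as log2(FPKM + 0.1), on which fold changes of low genes are understated. The 27 libraries entered 1 fit of 9 groups in limma 3.58.1 (R 4.3.3; eBayes with trend), with Benjamini-Hochberg adjustment over 14611 genes and a threshold of 0.05, after a check on simulated data. Other values were computed in Python 3.11.15. Of the gene identifiers 32776 were matched to names and 1688 were not. Reads per kb were inferred from the spacing of low FPKM in genes with 1 transcript, after subtraction of 260 nt from the transcript length.

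The members and lists were chosen with earlier results of these data known. Named were all members, any gene of the other lists that passed, and TPR. Replicate numbers were checked for pairing: deviations from group means correlated above 0.1 in every pair for control and TPR A total RNA (0.137 to 0.324) and not in the other comparisons with control, and the pairing rests on these data, not on the labels. In nuclear RNA of control and TPR A they were -0.260 to 0.250. For nuclear and cytoplasmic/ER libraries of 1 culture the deviations correlated at 0.223 to 0.469, which the main fit left out. Alternatives were other scalings, pseudocounts and minimum levels, a replicate block, limma without trend and fewer libraries in the fit. Replicates 2 and 3 alone, and each culture left out, were also run. A further limma fit for N/C took 1 value per culture. There the lowest adjusted p of a member's N/C change was 0.545 (TPR A) and 0.941 (TPR D).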

Additional observations from a re-analysis of the deposited data

How the results depend on the processing

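No result changed direction past the threshold under any alternative. Calls near the threshold depended on the setting. NUP160 with TPR D in total RNA was no longer called, so that the count fell from 1 to 0, with a minimum mean of 5 FPKM, with only the groups compared in the fit, without the 2 libraries of control replicate 2, and in replicates 2 and 3 alone. In nuclear RNA with TPR D it fell from 1 to 0 with only the groups compared and in replicates 2 and 3 alone. In cytoplasmic/ER RNA with TPR D the count rose from 0 to 1, NUP160, with a pseudocount of 0.01, with no minimum and without the 2 libraries. With the replicate number as a block, cytoplasmic/ER RNA with TPR D had 1 member (NUP160) and nuclear RNA with TPR A had 1 (NUP54), and the block changed no other count of members called. With cultures left out in turn, counts ran from 0 to 1 for TPR D in total, nuclear and cytoplasmic/ER RNA and for TPR A in nuclear RNA, where NDC1 passed without control replicate 3. The total RNA call of NUP160 was lost without control replicate 1 or 2, TPR A replicate 1 or 2, or any TPR D replicate, and the nuclear call without any culture but control replicate 2. The count of 11 members higher in the nuclear fraction of control cells ran from 7 to 11, with 7 without control replicate 1, and was 7 in replicates 2 and 3 alone. The median of the members in total RNA ran from -0.53 to -0.02 with TPR A and from -0.50 to -0.12 with TPR D when a control replicate was left out, and was lowest without replicate 3. Fewer samples also leave fewer residual degrees of freedom; other causes were not tested.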
